A study of Mus musculus with 6 samples.

Results

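The Dlk1-Dio3 region of mouse chromosome 12 is an imprinted domain that holds one of the largest groups of microRNAs (miRNAs, short RNAs that repress the transcripts they pair with) in mammals. Its miRNAs were followed here in EB3, an ES (embryonic stem) cell line of mouse strain background 129/Ola, across 6 samples. Members were chosen by name: mouse miRNAs of the array whose number belongs to a fixed list of 41 hairpins of the region, without the names that end in an asterisk, which mark passenger strands. This gave 50 of the 611 mouse miRNAs on the array. The 3 samples titled Activin (-) carry the source name of a control, and the 3 titled Activin (+) that of cells differentiated with Activin, a TGF-beta family ligand. The protocol text is the same for all 6 samples and describes Activin at 10 ng/ml through 3 days of embryoid bodies and 15 days on gelatin, with harvest on day 18. It therefore does not say whether the control cells were kept undifferentiated or were differentiated without Activin. Each sample was hybridised to its own single-colour Agilent array after Cy3 labelling of 100 ng of total RNA. All cells are of 1 line, and nothing says whether the samples of a group were separate cultures, so the p-values rest on a spread between arrays that may be technical.

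In imprinted domains the copy inherited from the mother and the copy inherited from the father behave differently. In this one the paternal copy expresses the protein-coding genes Dlk1, Rtl1 and Dio3, and the maternal copy expresses a string of non-coding transcripts, Meg3, Rian and Mirg, from which the miRNAs are cut. Some of these miRNAs lie opposite the coding sequence of Rtl1, a retrotransposon-derived gene needed in the placenta, and can direct cleavage of its transcript. A long tandem cluster that runs from miR-379 to miR-410 lies further along, and its miRNAs are best known from embryo and brain. In mouse pluripotent stem cells, the activity of the maternal transcripts is known to differ between lines.

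The members that were measured best are shown with the sequences that pair with targets. Of the 50 members, 47 matched a mature miRNA in RefSeq (assembly GRCm38.p6), and all matched hairpins lie on chromosome 12. Array names without an arm were assigned the arm that carries that name today, and the sequences are those of RefSeq, since the probes' own target sequences were not used here. Capitals mark the seed, bases 2 to 8, which sets most target pairing. The 8 members below passed the detection filter, and are given in order along the plus strand.
miR-337-5p: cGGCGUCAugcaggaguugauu
miR-431: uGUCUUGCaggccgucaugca
miR-127: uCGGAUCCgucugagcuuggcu
miR-370: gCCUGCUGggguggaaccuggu
miR-379: uGGUAGACuauggaacguagg
miR-300: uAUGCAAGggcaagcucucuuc
miR-154: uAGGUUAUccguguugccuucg
miR-410: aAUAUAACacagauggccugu

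No 2 of the 47 matched members have the same seed, so these miRNAs share a location and their primary transcripts rather than a seed. The mature sequences above lie at chr12:109585818-109585839 (miR-337-5p), chr12:109590459-109590479 (miR-431), chr12:109592888-109592909 (miR-127) and chr12:109618305-109618326 (miR-370). Those of the miR-379 to miR-410 cluster lie at chr12:109709065-109709085 (miR-379), chr12:109724363-109724384 (miR-300), chr12:109738438-109738459 (miR-154) and chr12:109743764-109743784 (miR-410). The closest sequences to a detected member were 3 letters apart. They are printed here with their seeds in capitals, because 1 of each pair was detected and its near copy was not.
miR-300: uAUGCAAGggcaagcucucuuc
miR-381: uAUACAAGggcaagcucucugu
miR-376a: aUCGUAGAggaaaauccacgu
miR-376b: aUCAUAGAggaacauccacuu

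The seeds differ within each pair. Signal of miR-300 was detected on 6 arrays and that of miR-376a on 3, while miR-381 and miR-376b were detected on 0. For the other detected members with a sequence, the nearest RefSeq mature miRNA of another hairpin differed by 4 to 9 letters.

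Arrays differed in brightness. The scanner software marks each spot that is well above background, and a miRNA was taken as detected if any of its probes had over 0.5 of its spots so marked. Arrays were scaled to the 75th percentile of 59 probes that every array detected. This divisor was 249, 616 and 427 intensity units on control 1, 2 and 3 and 570, 177 and 554 on Activin 1, 2 and 3. Control 1 and Activin 2 were thus the dim arrays. Signals below are log2 of the scaled signal, with a floor at -4.94. The ES cell miRNAs of the miR-290 to miR-295 cluster were present in both groups, with 5 of 14 detected and 0 of these 5 with a log2 fold change above 0. On no array were any of 5 haematopoietic or 4 liver, gut and islet miRNAs detected. At least 1 array detected 1 of 3 neural, 1 of 4 striated muscle, 3 of 5 epithelial and 8 of 9 let-7 and miR-98 miRNAs.

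Of the 50 members, 19 were detected on at least 1 array (38.0%), against 130 of the 611 mouse miRNAs (21.3%). The 611 include passenger strands, which the naming rule leaves out of the members, so these shares are of unlike sets. Of the members' own 13 passenger strands 1 was detected. The other 31 members were detected on none. The control arrays detected 8, 15 and 17 members and the Activin arrays 19, 6 and 16. The low numbers, 8 and 6, are those of the dim arrays, 1 in each group. The means were 13.3 ± 4.73 for control and 13.7 ± 6.81 for Activin (SD, n = 3 each), which did not differ in an exact two-sided permutation test (p = 1, where 0.1 is the smallest p that 3 against 3 can give). Without control 1 the difference of 0.33 members turned to -2.33.

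**Figure D1:**
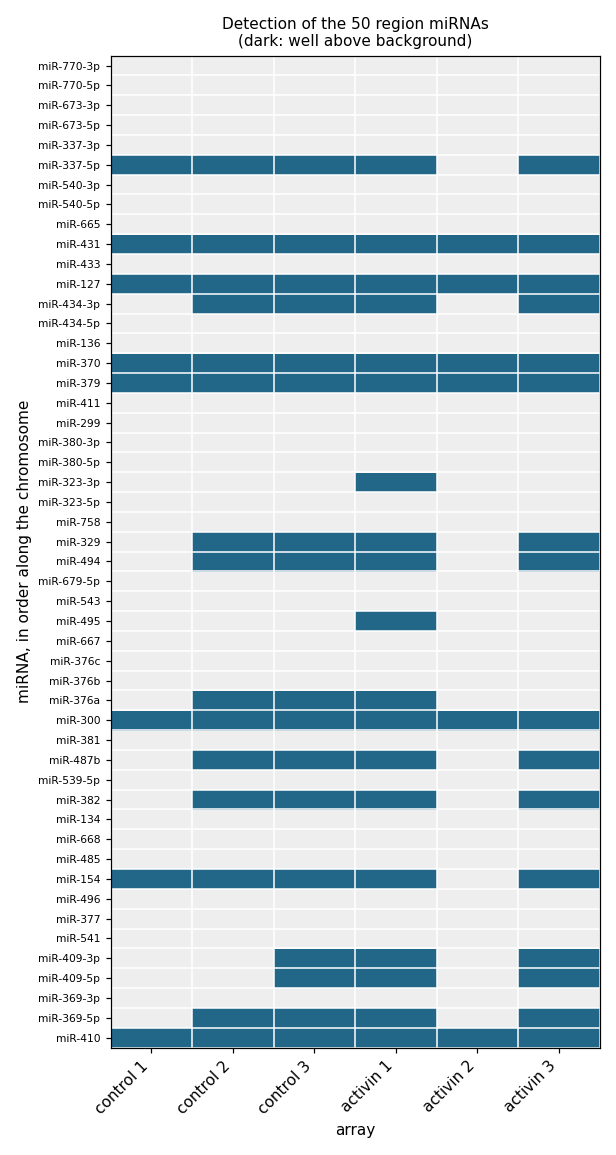
Detection of the 50 members (rows, in order along chromosome 12) on the 6 arrays (columns); dark cells mark arrays on which the miRNA was detected. Rows for miR-431, miR-127, miR-370, miR-379, miR-300 and miR-410 are dark on all 6 arrays, and the dim arrays control 1 and Activin 2 have 8 and 6 dark cells.

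Detected members lay along the whole region except its start. The intron of Meg3 holds miR-770, of which 0 of 2 arms were detected. Upstream of and opposite Rtl1, 4 of 13 members were detected: miR-337-5p, miR-431, miR-127 and miR-434-3p. miR-370, the only member between these and the long cluster, was detected on every array. In the miR-379 to miR-410 cluster 14 of 34 members were detected, and miR-379, miR-300 and miR-410 were detected on all 6 arrays. The cluster's first and last miRNA, miR-379 and miR-410, were thus both among them. Median GC content was 52.2% for the 8 tested members, 45.5% for 10 detected but untested members with a sequence, and 47.6% for 29 members detected on no array, with ranges that overlap (38.1 to 68.2%, 36.4 to 54.5% and 23.8 to 72.7%).

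One arm of a hairpin was read far more often than both. For 22 of the 41 hairpins the array carries both arms, counting passenger strands. In 11 of these exactly 1 arm was detected on at least 1 array, in 10 neither was, and both were detected in 1, miR-409. Its hairpin (chr12:109743158-109743236, plus strand, GRCm38.p6) is shown with both mature arms in capitals, beside that of miR-431 (chr12:109590447-109590537), where the 5′ arm was detected on 6 arrays and the 3′ arm, miR-431*, on 0.
Mir409: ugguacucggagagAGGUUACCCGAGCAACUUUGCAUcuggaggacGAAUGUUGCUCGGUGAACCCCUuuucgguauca
Mir431: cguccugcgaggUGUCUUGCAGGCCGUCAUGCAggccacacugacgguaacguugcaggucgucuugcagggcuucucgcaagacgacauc

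Both arms of miR-409 were detected on the same 3 arrays, control 3, Activin 1 and Activin 3. Different probes bind with different strength, so levels of the arms are not compared.

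The groups were compared over 79 mouse miRNAs, those that all 3 control or all 3 Activin arrays detected, with limma's moderated test, two-sided, adjusted by Benjamini-Hochberg over all 79. Of the members, 8 were in this test, or 16.0% of the 50. All 8 entered through the control arrays, each of which detected all of them, so the filter did not select members for being high with Activin. None passed an adjusted p of 0.05 in either direction, against 1 of all 79 miRNAs (1.27%). At an unadjusted limma p under 0.05 there were 2 members, miR-431 and miR-370, against 9 of 79 (11.4%), of which 4 (5.06%) were higher with Activin as both members were. All 8 had a log2 fold change above 0 (Activin minus control), from 0.25 to 0.72, where 63.3% of all tested miRNAs did. Their median was 0.43, and that of all 79 was 0.17. In RNA from whole cultures, more cells that express these miRNAs and more of each miRNA per cell cannot be told apart.

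**Figure D2:**
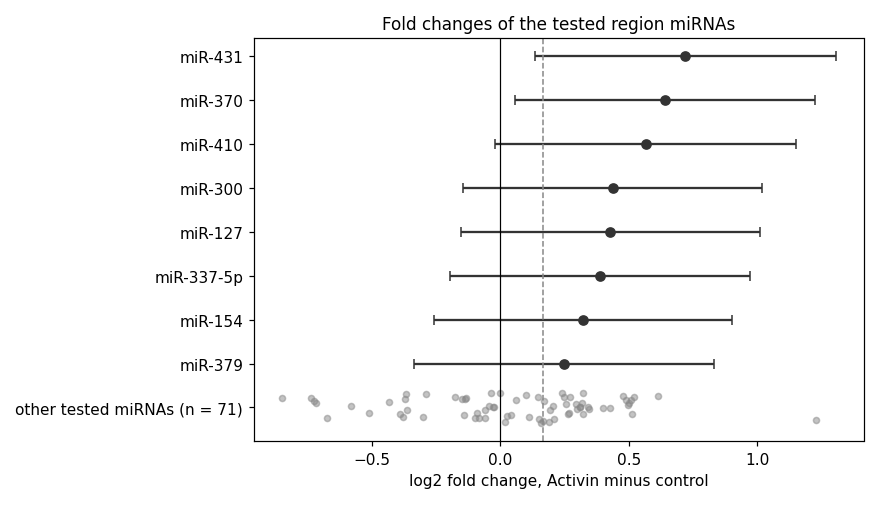
Log2 fold change (Activin minus control) of the 8 tested members with 95% intervals from limma, above the 71 other tested miRNAs (grey points, spread vertically for legibility). The dashed line is the median of all 79 miRNAs at 0.17, and all 8 members lie to its right, from 0.25 for miR-379 to 0.72 for miR-431.

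Most of the spread lay among the control arrays. In all 8 members control 1 and control 2 lay below every Activin array. Control 3 lay within the Activin range for 3 members, above it for 4 and below it for 1. Among the 71 other tested miRNAs, control 1 lay below the Activin range for 60.6%, control 2 for 33.8% and control 3 for 19.7%. The median difference of the members from the Activin mean was -0.73 for control 1, -0.57 for control 2 and 0.00 for control 3. The control arrays thus spread more than the Activin arrays for these miRNAs, over a median range of 0.90 against 0.12. For all 79 miRNAs the median ranges were 0.75 and 0.42.

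**Figure D3:**
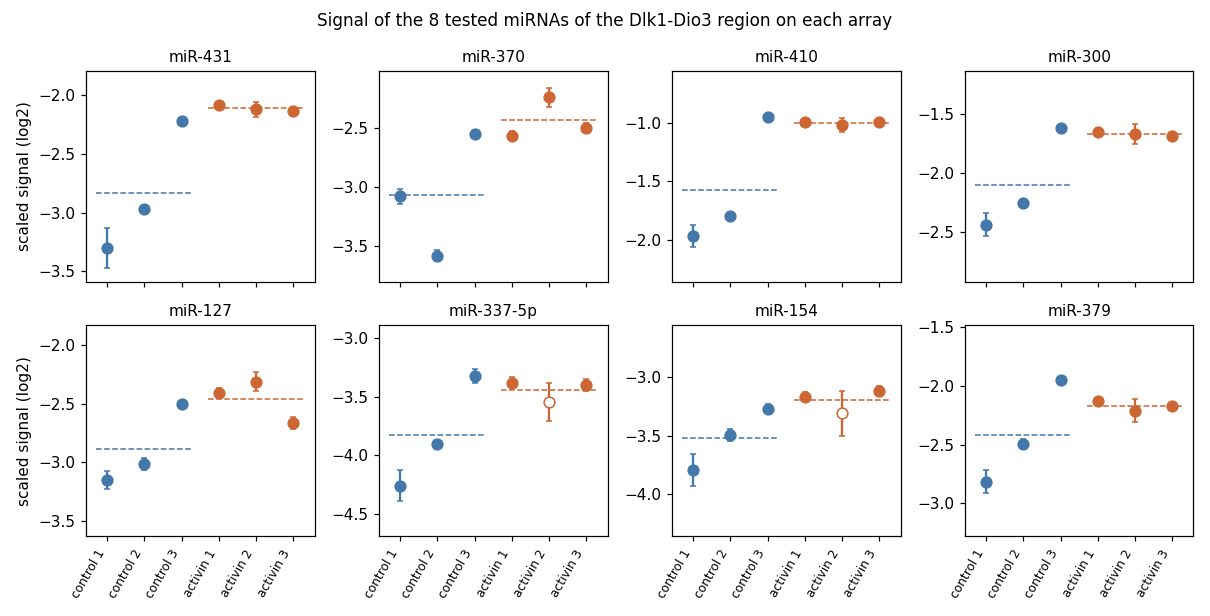
Scaled signal (log2) of each tested member on the 6 arrays, blue for control and orange for Activin; bars are the standard error over spots, dashed lines are group means, and open circles mark arrays where the miRNA was not detected. In every panel control 1 and control 2 sit below the 3 Activin arrays, while control 3 sits beside them.

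Among the miRNAs upstream of and opposite Rtl1, miR-431, which lies opposite that gene, was the one member whose groups did not overlap (1 of 8, against 17.7% of all tested miRNAs in either direction and 11.4% higher with Activin). It stood at -3.30, -2.97 and -2.22 on control 1, 2 and 3 and at -2.08, -2.12 and -2.13 on the Activin arrays. Before scaling these were 25.2, 78.3 and 91.5 intensity units and 134.5, 40.7 and 126. The Activin arrays lay within 0.05 of each other, and control 3 was 0.11 below their mean. The log2 fold change was 0.72 with an SE of 0.30 and a 95% interval of 0.13 to 1.30, or 1.65-fold, which did not pass (limma adjusted p = 0.216). The SDs were 0.55 in control and 0.03 with Activin (n = 3 each). It had the second highest log2 fold change of the 79 and the fifth smallest p. Without control 3 the log2 fold change was 1.03 (adjusted p = 0.0512), and without control 1 it was 0.49 (adjusted p = 0.493).

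miR-127, also opposite Rtl1 and known to pair perfectly with its transcript, stood at -3.15, -3.01 and -2.50 in control and at -2.40, -2.31 and -2.66 with Activin. Control 3 lay above Activin 3, so the groups overlapped. Its log2 fold change was 0.43 (SE 0.29, limma adjusted p = 0.529). miR-337-5p, which lies upstream of that group, stood at -4.26, -3.91 and -3.32 in control and at -3.38, -3.55 and -3.40 with Activin. Its highest array was control 3, and Activin 2 did not detect it. Its log2 fold change was 0.39 (SE 0.30, limma adjusted p = 0.583), which became 0.17 without control 1 and 0.64 without control 3.

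miR-370, between the groups, was the only tested member whose lowest array was control 2 rather than control 1. It stood at -3.08, -3.58 and -2.55 in control and at -2.56, -2.23 and -2.50 with Activin. Control 3 lay above Activin 1 by less than the spot error. The log2 fold change was 0.64 (SE 0.30, 95% interval 0.06 to 1.22, limma adjusted p = 0.316), or 1.56-fold. Leaving out control 2, where it was lowest, gave 0.38.

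In the long cluster miR-410, its last miRNA, stood at -1.96, -1.79 and -0.95 in control and at -0.99, -1.02 and -0.99 with Activin. In intensity units it read 63.8, 178 and 221 in control and 286, 87.3 and 278 with Activin. Activin arrays agreed within 0.03, control 3 was above all of them, and control 1 and control 2 were lower by 0.88 on average. The log2 fold change was 0.57 (SE 0.30, 95% interval -0.02 to 1.15, limma adjusted p = 0.414). It was 0.37 without control 1 and 0.88 without control 3. This member alone had both of its probes detected on all 6 arrays, with log2 fold changes of 0.57 and 0.56.

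miR-300 repeated this order, at -2.44, -2.26 and -1.62 in control and -1.65, -1.67 and -1.68 with Activin. Control 3 was again the highest array, and the log2 fold change was 0.44 (SE 0.30, limma adjusted p = 0.529). For miR-379, the cluster's first miRNA, values were -2.82, -2.49 and -1.95 in control and -2.13, -2.21 and -2.17 with Activin. Control 3 exceeded the Activin mean by 0.22, and the log2 fold change of 0.25 (SE 0.30, limma adjusted p = 0.659) was the lowest of the 8. Without control 1 it was 0.05 and without control 3 0.48. For miR-300 these values were 0.27 and 0.68.

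miR-154, whose name is also that of a family of related hairpins in the cluster, stood at -3.80, -3.50 and -3.27 in control and -3.17, -3.31 and -3.12 with Activin. Activin 2, on which it was not detected, lay below control 3. Its log2 fold change was 0.32 (SE 0.29, limma adjusted p = 0.614), and 0.18 without control 1. The limma SEs of the 79 miRNAs all lay between 0.29 and 0.31 because the variance was pooled almost fully (194.1 prior degrees of freedom), so they reflect a shared spread rather than that of each miRNA.

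Errors over spots were smaller than the range over control arrays in all 8 members. Over the up to 20 spots of each tested member the standard error of the log2 signal was 0.01 to 0.19. The gap between control 2 and control 3 was 0.84 for miR-410, with spot errors of 0.03 and 0.02 on these arrays. Of the arrays on which the members were low, control 1 was dim and control 2 had the highest divisor. Control 2 also had the lowest spike-in signals of the 4 brighter arrays, 6600 and 348 units for the 2 hybridisation spike-ins, against 7047 to 7712 and 370 to 570. The part of array brightness in these values was not tested. Of the 16 probes of the 8 members, 7 were detected on all 6 arrays, all with a log2 fold change above 0, and 6 were detected on none.

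Column 1 and column 2 of the slide each hold 1 array of either group. Control 1 and control 2 lay below every Activin array in all 8 members. The order within these columns follows from that and is not a separate check. Control 3 is in neither column. Activin 2 exceeded control 1 by a median of 0.81 over the 8 members in column 1, and Activin 3 exceeded control 2 by 0.54 in column 2, where the medians of all tested miRNAs were 0.50 and 0.03. In both columns the Activin array was in slide row 2 and the control array in row 1, so row and group cannot be told apart there. Control 3, the array closest to Activin, lay in row 1, as did Activin 1.

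Summed signals of marker lists are given beside those of the members. The summed scaled signal of the members was 1.59 to 2.89 on the control arrays and 2.53 to 2.89 on the Activin arrays. Of 6 mesenchymal and smooth muscle miRNAs 4 were detected: miR-199a-3p, miR-199a-5p, miR-21 and miR-214. The other 2, miR-143 and miR-145, were detected on no array. Of the 4 detected, miR-21 and miR-214 had groups that did not overlap, both higher with Activin, while miR-199a-3p and miR-199a-5p overlapped. In that direction 11.4% of all 79 tested miRNAs did not overlap. The list's summed signal was 1.77 to 2.50 in control and 2.69 to 2.91 with Activin, without overlap. Sums of 2 lists with almost nothing detected did not overlap either. They were 0.040 to 0.060 and 0.080 to 0.093 for striated muscle (1 of 4 detected). For liver, gut and islet (0 of 4) they were 0.011 to 0.019 and 0.025 to 0.034. The sums of the epithelial, neural, haematopoietic, and let-7 and miR-98 lists overlapped between the groups. The miR-290 to miR-295 cluster, with 5 of 14 detected, summed to 6.01 to 15.9 in control and 5.38 to 7.40 with Activin. The other 9 of its arms, miR-290-5p among them, were not detected. The miR-302 and miR-367 list, ES cell and epiblast miRNAs of which 5 of 5 were detected, summed to 0.196, 0.301 and 0.553 on control 1, 2 and 3 and to 0.628, 0.336 and 0.579 on the Activin arrays. Control 1 detected 0 and Activin 2 detected 1 of the 5. The 1 called miRNA of the 79 belongs to this list and passed the filter only through the Activin arrays, where it was high. The part of these lists in the values of the region was not tested.

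A further 11 members were detected on some arrays but stayed outside the test. Neither dim array detected any of them. The dimmest miRNA that Activin 2 detected stood at -3.23, and 10 of the 11 stayed below that value on all 4 brighter arrays. On control 1 the dimmest detected miRNA stood at -4.40, and 2 of the 11 stayed below it. Over all miRNAs detected outside the test, these counts were 43 and 17, where 130 mouse miRNAs were detected and 79 of these were tested. miR-329, miR-369-5p, miR-382, miR-434-3p, miR-487b and miR-494 were detected on the 2 brighter arrays of each group. Both arms of miR-409 were detected on control 3 and on the 2 brighter Activin arrays, and miR-376a on 2 control arrays and Activin 1. miR-323-3p and miR-495 were detected on Activin 1 alone. Their mean with Activin did not exceed the bound that detection sets in control, so no fold is given.

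The 4 brighter arrays, control 2 and 3 against Activin 1 and 3, measured 17 members among 115 miRNAs detected on both arrays of a group, a comparison chosen after the data were seen. None passed an adjusted limma p of 0.05, and 0 of all 115 did (0%), with 5 of 115 (4.35%) but 0 members at an unadjusted p under 0.05. Of the 17, both arms of miR-409 passed only through the Activin arrays and miR-376a only through the control arrays. The other 14 were detected on all 4 arrays, and 13 of them had a log2 fold change above 0, against 59 of the 102 miRNAs so detected, with medians of 0.29 and 0.07. Only miR-431 and miR-154 had groups that did not overlap, both higher with Activin, where 16.5% of all 115 did so in that direction and 17.4% in the other.

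Control 2 was the lowest of the 4 arrays for 13 of these 14 members (92.9%), against 52.9% of the 102 miRNAs. miR-434-3p, opposite Rtl1, stood at -3.39 on control 2 and -2.48 on control 3, and at -2.45 on Activin 1 and -2.74 on Activin 3. miR-329 stood at -4.18 and -3.46 in control and -3.37 and -3.54 with Activin. Control 3 was at or above Activin 3 in 11 of the 14 members, against 72 of the 102 miRNAs. The exception below 0 was miR-494, with a log2 fold change of -0.09. The 3 members that passed through 1 group alone are described without being counted. miR-409-3p stood at the floor of -4.94 on control 2, which did not detect it, at -3.72 on control 3 and at -3.55 and -3.97 on the Activin arrays. For miR-376a the log2 fold change was -0.17.

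**Figure D4:**
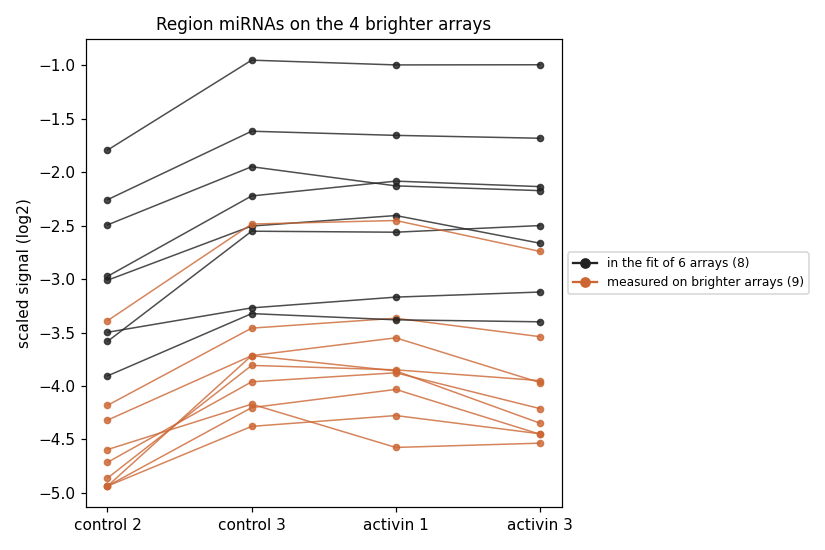
Scaled signal (log2) of the 17 members measured on the 4 brighter arrays, 1 line per miRNA, black for the 8 in the test of all arrays and orange for the other 9. Levels of different miRNAs are not comparable, and the shape of each line shows control 2 lowest in 13 of the 14 members detected on all 4 arrays.

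Other miRNAs of the region outside the naming rule were nearly all undetected. Of 13 passenger strands of the members 1 was detected, miR-299*, on 2 arrays of each group. It stood at -4.65, -3.94 and -3.17 in control and at -3.22, -3.90 and -3.57 with Activin, while the other arm, miR-299, was detected on no array. Of 13 further miRNAs of the region 1 was detected, miR-341, on control 3, Activin 1 and Activin 3. It stood at the floor of -4.94 on control 1 and control 2, at -4.05 on control 3 and at -3.93, -4.72 and -4.19 with Activin. None of these 26 entered the test.

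The direction of the 8 fold changes held under most ways of processing, some of which reuse the main signals and could not change it. Dividing arrays by another constant shifts all miRNAs of an array alike, so it moved the median of all 79 miRNAs between -0.07 and 0.17 and left the distance of the members from it at 0.27. Under each of the 5 other scalings the 8 members all lay above the median of the 79. For those that divide by a constant this largely follows from the main signals. Quantile scaling, which does not, gave a distance of 0.16. With a normexp background correction, where the median of all 79 was -0.31, only miR-410 stayed above 0, at 0.21, and 6 of 8 stayed above the median of all. No member passed the adjusted threshold under any of the 25 alternatives, and the lowest adjusted p of a member was 0.0512. Leaving out control 1 gave a median log2 fold change of 0.28 over the 8 members and leaving out control 3 one of 0.66.

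**Figure D5:**
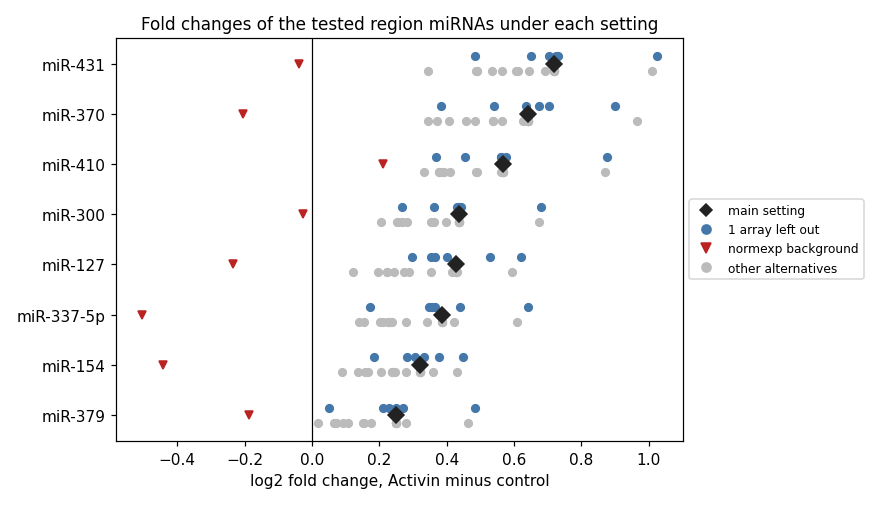
Log2 fold change (Activin minus control) of each tested member under the main setting (black), with 1 array left out (blue), with normexp background (red) and under the other alternatives (grey). All points except 7 of the 8 red ones lie above 0, and miR-431 ranges from -0.037 to 1.03.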

How the data were processed

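Total RNA of 6 samples was measured, 1 array each, on 1 slide. The deposited scanner files hold spot intensity values on a linear scale from Agilent Feature Extraction 10.7.3.1, per the file headers, or 10.1.1, per the submitters' processing notes. Per the file headers, background was subtracted, and no scaling between arrays is named. The deposited series table holds the same intensity values, with column medians of 1.52, 1.77 and 1.29 for control and 1.84, -0.0489 and 1.24 for Activin. It is linear, uncentred and of 1 colour. The headers name mm9 for the design, and sequences and coordinates are RefSeq's, GRCm38.p6, matched by name.

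Spots with an outlier flag were left out. Processed signals were averaged within each probe, and the probe means within each miRNA. These were divided by the array's 75th percentile over 59 probes, floored at 0.0326 and converted to log2. Of 474 tested values, 1 lay at the floor. The comparison used lmFit and eBayes of limma 3.58.1 (R 4.3.3) over 79 miRNAs. The fit was tried on simulated data with independent noise of a common spread. In the real data the control arrays spread more than the Activin arrays, so that trial gives no error rate for them. No spot of a miRNA was saturated. The precision is limited by 3 arrays per group. Every tested member is named with its values, members detected outside the test with their detection, and the rest are counted. Members, lists and tests were chosen with earlier results of these data known.

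Samples share replicate numbers across groups. Deviations of same-numbered arrays from their group means correlated at -0.64, -0.09 and 0.34 across the 79 miRNAs. Arrays with different numbers correlated at -0.61 to 0.66. Differences between whole arrays enter these values, so they do not show whether the numbers pair the samples. Normexp used the median spot signal in place of the mean. Alternatives covered scaling, background, summary over probes, floor, filter, detection call, blocks and arrays left out.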

Additional observations from a re-analysis of the deposited data

How the results depend on the processing

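No alternative gave a member past the adjusted threshold. Some alternatives could not turn a fold change. The series table, the filters, the software's detection call and the replicate block return the main fold changes. Leaving out both dim arrays gave the same fold changes with either filter. Of 198 recomputed member fold changes, these included, 191 kept their direction. The other 7 turned below 0 with normexp background: miR-127 to -0.23, miR-154 to -0.44, miR-300 to -0.027, miR-337-5p to -0.51, miR-370 to -0.20, miR-379 to -0.19 and miR-431 to -0.037. There the median of the members was -0.19, which is 0.11 above that of all tested miRNAs; the cause was not tested. With no filter, where most miRNAs lie at the floor, both medians were 0.0, over 50 members and 611 miRNAs, and so was their distance. With slide column as a block the members lay 0.40 above the median of all. Control 3 and Activin 1 are each alone in their column. That value therefore rests on control 1, control 2, Activin 2 and Activin 3, without control 3. Leaving out 1 array, the members' median ranged from 0.28 to 0.66 and its distance from all miRNAs from 0.16 (without control 2) to 0.42 (without control 3). The difference in detected members ranged from -2.33 to 4.17. With the replicate block the count of members called was 0, as without it. The members' lowest adjusted limma p was 0.511 and their median 0.43. Whether the numbers pair the samples is not known. Over all tested miRNAs 1 was called. The count was 0 when arrays were scaled by all probes' 75th percentile, by quantiles, by spike-ins or not at all, and with normexp, the mean of log2 over probes, the brightest probe, the software's total gene signal, the higher floor, no filter, both other filters, the software's detection call, and the 4 brighter arrays with the filter reapplied. It was 2 without both dim arrays over the same 79 miRNAs, and 0 to 1 with 1 array left out. Signal limits detection most on Activin 2, whose lowest detected miRNA stood at -3.23, against -4.40 on control 1, the other dim array, and -4.97 or lower on the rest.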

Other observations

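The scanner software's own detection call, which is less strict than the one used above, was positive for 22 of the 50 members on at least 1 array. The 3 added members were miR-411, the second miRNA of the long cluster, miR-433, which lies opposite Rtl1, and miR-543. miR-411 and miR-433 were called on 2 control and 2 Activin arrays and miR-543 on Activin 1 alone. Before scaling miR-411 read 7.91, 18.3 and 14.2 intensity units in control and 16.5, 2.18 and 20.4 with Activin. miR-433 read 4.50, 9.67 and 8.50 in control and 15.2, -0.05 and 10.6 with Activin. For both the groups overlapped.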
